A study of Mus musculus with 9 samples.

Results

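The cardiac thin filament was examined through 9 genes in mouse heart: the troponin C gene Tnnc1, the troponin T genes Tnnt2 and Tnnt1, the troponin I genes Tnni3, Tnni1 and Tnni2, the tropomyosin gene Tpm1 and the sarcomeric actin genes Actc1 and Acta1. These were chosen by name, and every non-control probe whose accession belongs to one of them was taken, which gave 14 probes for all 9 genes, of 19096 named genes on the array. Total RNA came from the hearts of male mice labelled C57BL/6, 3 to 4 months old, fed NIH31 diet and given no treatment. The 5 wild-type (WT) mice were compared with 4 RORasg/sg mice, which are homozygous for staggerer, a germline deletion inside Rora that removes the nuclear receptor RORalpha in every tissue. The study asked how RORalpha bears on hypertrophy of the heart. Each heart gave 1 single-colour Agilent array, and whether the mice were littermates is not given in the sources used here.

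Thin filaments are polymers of actin along which tropomyosin lies. The troponin complex sits on tropomyosin and switches contraction on when calcium binds troponin C, while troponin I inhibits and troponin T anchors the complex. The adult mouse heart uses Tnnc1, Tnnt2, Tnni3, Tpm1 and Actc1. Tnni1, the slow skeletal troponin I, serves the fetal heart before Tnni3 replaces it, Tnnt1 and Tnni2 are best known from slow and fast skeletal muscle, and Acta1, the skeletal actin, is raised in fetal and hypertrophic heart. A shift between these pairs is a common readout of hypertrophic remodelling, and the isoform balances are therefore given beside the single genes.

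The promoters of both actin genes are shown because each carries a CArG box, the site read by serum response factor (SRF). The RefSeq table of GRCm38.p6 gave 10 promoters for 8 of the 9 genes, and the 250 bases before each annotated start were searched on both strands. The CArG box was found in the promoters of Actc1 and Acta1 and in none of the other member promoters, against 1.47% of 32851 promoters of the same length. It began 47 bases before the start in Actc1 and 73 bases before it in Acta1. TATAAA was found in Acta1 and Tnnt1 (12.4% of all promoters). AGGTCA, the half-site bound by ROR receptors, was found in none of the 10 promoters (14% of all), and neither was the MEF2 site (2.92% of all). The matches did not overlap each other. A match or its absence describes these letters in this window and no more. Both sequences run 5′ to 3′ toward the gene, with CArG boxes and TATAAA in capitals. That of Actc1 is chr2:114052876-114053125 and that of Acta1 chr8:123894776-123895025, both on the minus strand of GRCm38.p6.
Actc1: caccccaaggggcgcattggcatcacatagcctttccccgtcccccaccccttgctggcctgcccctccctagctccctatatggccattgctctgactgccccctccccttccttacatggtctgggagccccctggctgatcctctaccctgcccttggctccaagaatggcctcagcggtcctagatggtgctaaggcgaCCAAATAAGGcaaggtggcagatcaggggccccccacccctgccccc
Acta1: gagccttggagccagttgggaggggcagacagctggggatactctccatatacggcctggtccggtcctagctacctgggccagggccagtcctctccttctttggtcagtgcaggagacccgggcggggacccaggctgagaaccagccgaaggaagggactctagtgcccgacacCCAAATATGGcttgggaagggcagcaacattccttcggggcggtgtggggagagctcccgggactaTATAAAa

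Before the results, some features of the arrays bear on all of them. The 75th percentile of processed signal ran from 436 to 684 over the WT arrays and from 264 to 773 over the RORasg/sg arrays, and WT 4 and RORasg/sg 2, 3 and 4 were the 4 dimmer arrays (under 500). Scaled values below are log2 of the processed signal minus the array's 75th percentile. On that scale the median difference of all 36402 probes kept was 0.31 (RORasg/sg minus WT), 0.25 with median centring, 0.20 with quantile normalization and -0.26 in the unscaled signal, and each single difference stands on top of that shift. The RORasg/sg arrays also differed more among themselves than the WT arrays did, with a median SD per probe of 1.09 against 0.525. On 2 of its 3 probes (-5.34 and -4.13), Rora itself separated the groups completely, with the RORasg/sg hearts lower, and RORasg/sg 1 was the highest of its group on both. By limma, 1 of 36402 probes passed an adjusted p of 0.05 (0.00275%), and it was no member.

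Across the 9 genes, the mean signal of the representing probe (the brightest kept probe of each gene) was lower in RORasg/sg hearts for 8 and higher for Tnni1, while 38.3% of all probes had a lower mean. None passed the threshold over all probes in limma (0 of 9, against 0.00275% of all probes). At an unadjusted p under 0.05 there were 4 lower members, Tnnc1, Tnni2, Actc1 and Acta1, and 0 higher ones, where 8.27% of all probes were lower and 4.50% higher at that p. The median difference of the 9 was -1.0, against 0.31 for all probes. No member probe separated the groups completely, whereas 1.83% of all probes had every RORasg/sg array below every WT array and 1.23% the reverse. All 13 member probes tested kept their direction under the 4 scalings (75th percentile, median, quantile and none).

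**Figure D1:**
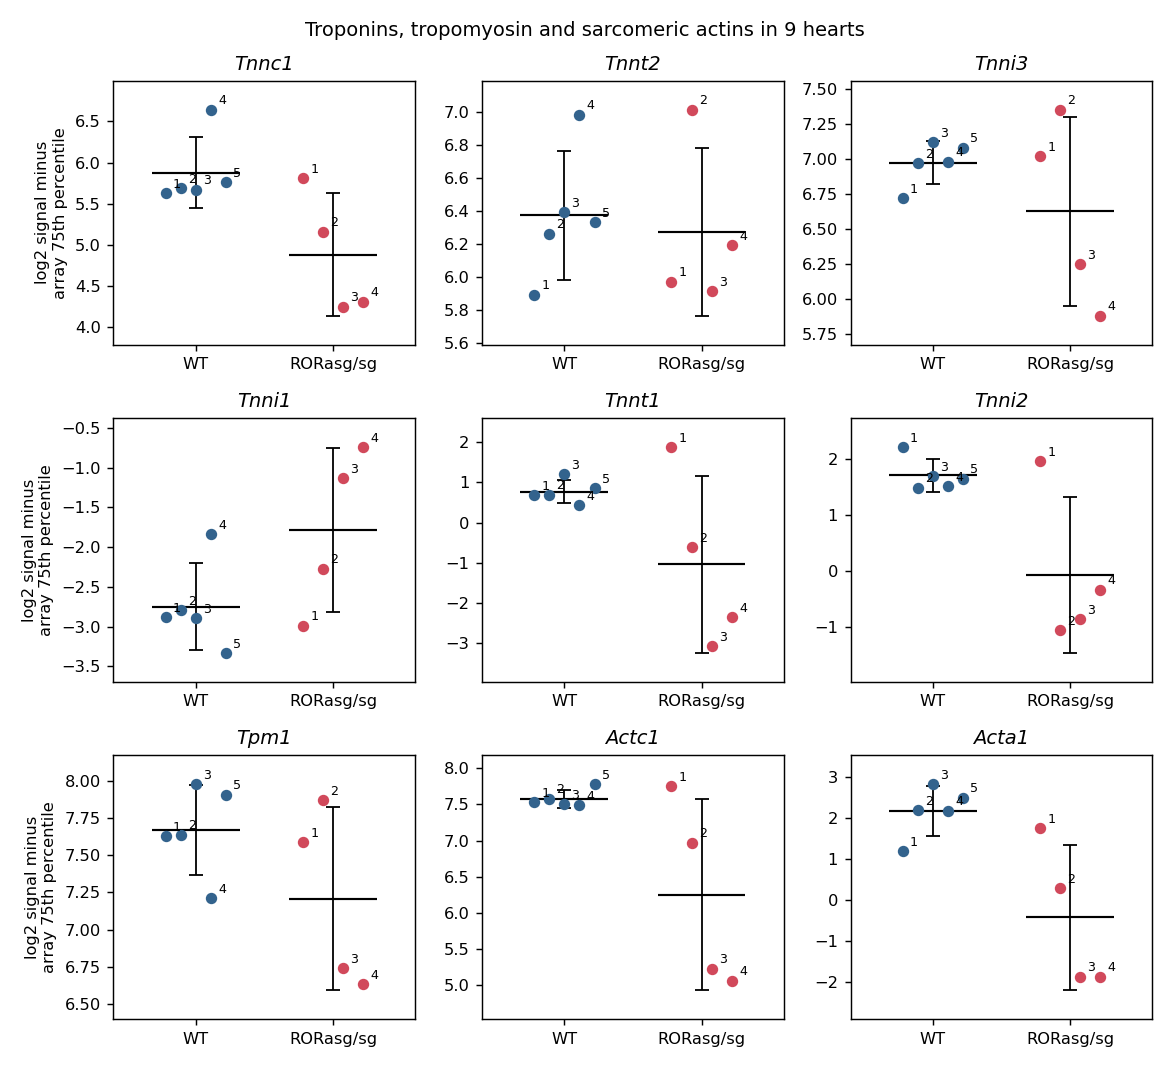
Each panel plots the scaled log2 signal of a gene's representing probe in the 5 WT and 4 RORasg/sg hearts, with the replicate number beside each point, a bar for the group mean and whiskers for the SD; each panel has its own vertical range. RORasg/sg 3 and 4 are the lowest hearts for Tnnc1, Tnnt1, Tnni3, Tpm1, Actc1 and Acta1, while RORasg/sg 1 lies close to or above the WT mean in most panels.

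On the representing probes, every member but Tnni1 read below the WT mean in RORasg/sg 3 and 4. The median deviation of the 9 representing probes from the WT mean was -0.07 in RORasg/sg 1, -0.61 in RORasg/sg 2, -1.63 in RORasg/sg 3 and -1.57 in RORasg/sg 4, and between -0.14 and 0.08 in the WT hearts. Over all kept probes the same medians were -0.29, 0.41, 0.50 and 0.58. In hearts 2, 3 and 4 the members' median thus lay on the other side of the WT mean from the general shift. The members were divided in RORasg/sg 2. There Tnnt2 (0.64), Tnni1 (0.48), Tnni3 (0.37) and Tpm1 (0.20) lay above the WT mean, and Tnnc1, Tnnt1, Tnni2, Actc1 and Acta1 below it. RORasg/sg 3 and 4 shared slide 2 with WT 3 and WT 4, whose member medians were 0.02 and 0.00. RORasg/sg 1 and 2 shared slide 1 with WT 1 and WT 2. WT 5, alone on slide 3, enters no difference within a slide. RORasg/sg 1, the heart nearest the WT hearts, is on slide 1 only, so slide and heart cannot be told apart in those differences. WT 4, the dim WT array, was the lowest WT heart for Tnnt1 (-0.34) and the highest for Tnnc1 (0.77), Tnnt2 (0.61) and Tnni1 (0.91). For Tpm1 it was the lowest WT heart on the representing probe (-0.46) and on A_52_P44949 (-0.86), but the highest on A_52_P532910 (0.38). Over all probes it correlated with the brighter WT arrays at a median r of 0.874, against 0.972 to 0.975 among those arrays, 0.956 for RORasg/sg 1 and 0.713 to 0.833 for RORasg/sg 2 to 4. With slide as a block the median member difference was -1.03, and with array brightness as a covariate it was -0.63. In that fit Acta1 read -1.78, Tnni2 -0.88, Tnnc1 -0.77, Actc1 -0.71, Tnnt1 -0.63, Tnnt2 -0.41, Tpm1 -0.26, Tnni3 -0.20 and Tnni1 0.32, so all but Tnnt2 were closer to 0 than without the covariate. In the 4 dimmer arrays alone, 1 WT and 3 RORasg/sg, it was -1.73. In each of these fits 8 members had a lower mean and 0 passed in limma, and 3 of the 4 RORasg/sg arrays were dim, so brightness and group are largely shared. In bulk RNA of this kind, fewer cells of a type and less RNA per cell cannot be told apart.

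**Figure D2:**
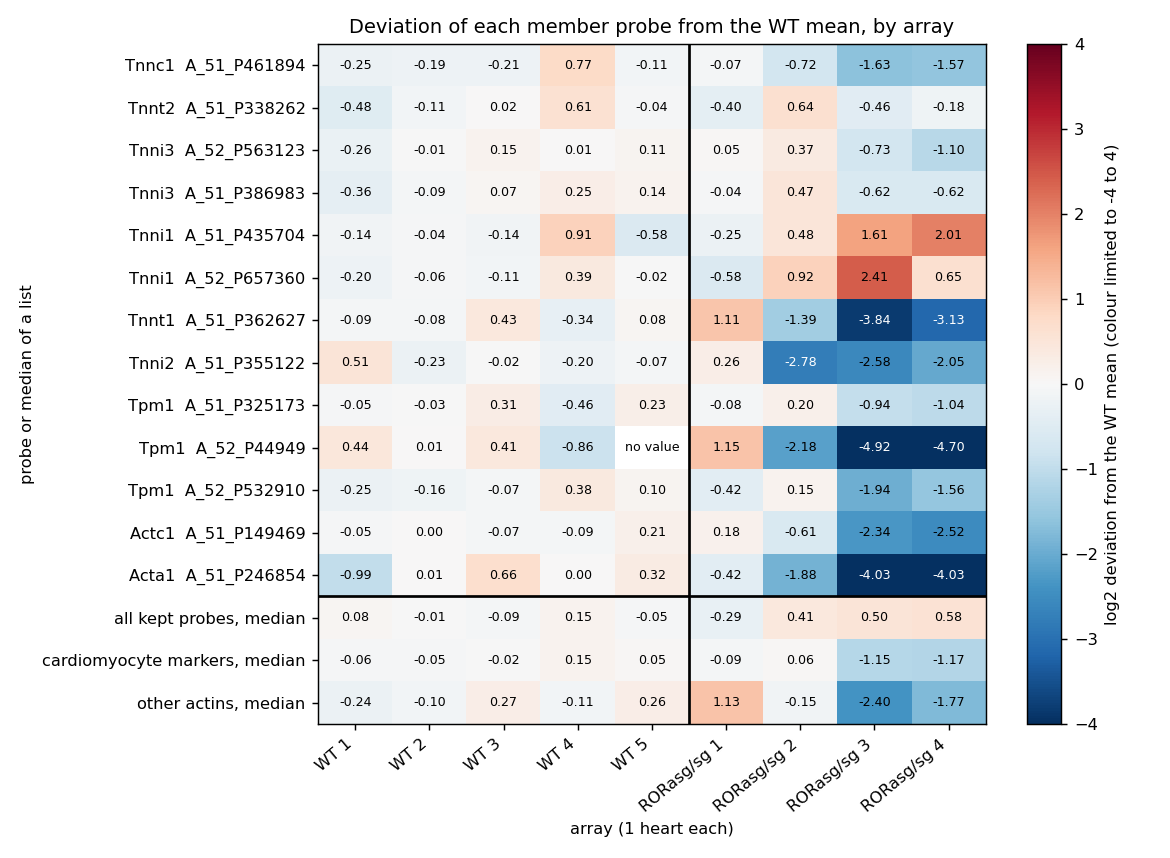
Rows are the 13 member probes tested and, below the line, the medians of all kept probes, of 12 cardiomyocyte markers and of 4 other actins; columns are the 9 hearts, and each cell gives the log2 deviation from the WT mean of that row. The deepest values, -4.92 and -4.70 for the Tpm1 probe A_52_P44949 and -4.03 for Acta1, are in RORasg/sg 3 and 4, and the positive cells of those hearts are the Tnni1 probes and the median of all probes.

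Tnnc1, the calcium sensor of cardiac and slow muscle, had a processed signal of 33845, 33213, 32064, 43619 and 29717 in WT 1 to 5 and of 43279, 10438, 7430 and 5252 in RORasg/sg 1 to 4. RORasg/sg 2, 3 and 4 lay below every WT heart and RORasg/sg 1 did not. After scaling, the WT mean was 5.88 ± 0.431 (SD, n = 5) and the RORasg/sg mean 4.88 ± 0.743 (SD, n = 4). The difference was -1.0 (SE 0.379, 95% confidence interval -1.83 to -0.17, limma adjusted p = 0.354), or 2.0-fold lower. Within slides 1 and 2 it was -0.18 and -1.87. WT 4 stood above the other WT hearts, at 6.64 against 5.63 to 5.76.

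Tnnt2, the cardiac troponin T, was the member whose groups differed least. Its signal was 40633, 49208, 52818, 55080 and 43925 in the WT hearts and 48543, 37635, 23498 and 19310 in the RORasg/sg hearts. The last 3 were the lowest of the 9 before scaling, but the arrays were dimmer too, and after scaling RORasg/sg 2 (7.01) was the highest and WT 1 (5.89) the lowest. The scaled difference was -0.10 (SE 0.304, interval -0.76 to 0.57, limma adjusted p = 0.849). It was 0.42 within slide 1 and -0.63 within slide 2, and without scaling it was -0.67.

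Tnni3, the adult cardiac inhibitory subunit, was read by 2 probes. The brighter, A_52_P563123, gave 71909, 80516, 87860, 55040 and 74072 in WT hearts and 100563, 47520, 29640 and 15549 in RORasg/sg hearts. RORasg/sg 1 gave the highest signal of all hearts and RORasg/sg 4 the lowest. The scaled difference was -0.35 (SE 0.300, interval -1.01 to 0.31, limma adjusted p = 0.495), and that of the second probe, A_51_P386983, was -0.20 (SE 0.296, adjusted p = 0.675). The 2 probes followed each other closely, with a log2 ratio between them that stayed within -1.25 to -0.67 over the 9 arrays. Within slides the brighter probe differed by 0.34 and -0.99. An interval that reaches -1.01 leaves room for a 2.0-fold loss, so similar levels are not shown.

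Tnni1, the slow skeletal and fetal inhibitory subunit, was the 1 member with a higher mean in RORasg/sg hearts. Its signal on A_51_P435704 was 92.9, 93.2, 85.1, 122 and 54.4 in WT hearts and 97.3, 60.5, 178 and 159 in RORasg/sg hearts. The highest hearts were RORasg/sg 3 and 4, and RORasg/sg 1 and 2 lay within the WT range. The scaled difference was 0.96 (SE 0.540, interval -0.22 to 2.14, limma adjusted p = 0.403) and 0.39 in the unscaled signal. The second probe, A_52_P657360, gave 83.7, 86.9, 82.6, 80.4 and 76.2 in WT hearts and 72.8, 77.7, 293 and 58.4 in RORasg/sg hearts. Here only RORasg/sg 3 exceeded the WT hearts before scaling and RORasg/sg 4 was the lowest, so the probes did not give the same order of hearts. After scaling, RORasg/sg 2, 3 and 4 all lay above the WT hearts on this probe (-1.91, -0.41 and -2.18 against at most -2.44). The scaled difference on that probe was 0.85 (SE 0.551, adjusted p = 0.420), and 0.28 unscaled. Both probes were well above background on all 9 arrays, and within slides the first differed by 0.20 and 1.43.

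Tnnt1, the slow skeletal troponin T, gave 1096, 1040, 1455, 587 and 983 in WT hearts and 2845, 191, 46.7 and 51.4 in RORasg/sg hearts. RORasg/sg 1 was the highest of the 9 hearts and the other RORasg/sg hearts were the lowest, a 61.0-fold range within the group against 2.48-fold in WT. The means after scaling were 0.77 ± 0.286 (SD, n = 5) and -1.04 ± 2.20 (SD, n = 4). The difference of -1.81 (SE 0.842, interval -3.65 to 0.03, limma adjusted p = 0.392) was -0.05 within slide 1 and -3.53 within slide 2. On slide 1, RORasg/sg 1 and 2 deviated from the WT mean in opposite directions, by 1.11 and -1.39.

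Tnni2, the fast skeletal inhibitory subunit, gave 3191, 1802, 2049, 1250 and 1716 in WT hearts and 3038, 140, 214 and 209 in RORasg/sg hearts. RORasg/sg 2, 3 and 4 lay well below all WT hearts, and RORasg/sg 1 was second only to WT 1. RORasg/sg 2 was the lowest heart here, and hearts 2, 3 and 4 deviated from the WT mean by -2.78, -2.58 and -2.05. The difference was -1.79 (SE 0.609, interval -3.12 to -0.46, limma adjusted p = 0.334), or 3.46-fold lower, and -1.40 and -2.21 within slides 1 and 2. The Tnni2 and Tnnt1 probes were well above background in all 9 hearts. Of 15 other skeletal muscle genes, 14 were kept, with a median difference of 0.27, and their summed scaled level was 65.4 to 92.4 in WT and 76.0 to 122 in RORasg/sg hearts. They had no common direction, with 7 higher and 7 lower in mean and 0 passing in limma. Atp2a1 differed by -2.45 (SE 1.01), at 0.43 and 0.38 in RORasg/sg 3 and 4 against a WT mean of 5.29. Myh1 (1.58, SE 0.597), Myl1 (1.28, SE 0.558) and Myod1 (1.16, SE 0.635) had higher means. Actn3, a marker of fast fibres, was not kept.

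Tpm1, the striated muscle tropomyosin, lies on chromosome 9, as Rora does, with 4 protein-coding genes between them in the GRCm38.p6 annotation. It was read by 4 probes that did not move alike. A_51_P325173, the brightest, gave 134983, 128103, 159022, 64771 and 131180 in WT hearts and 149060, 68329, 41605 and 26139 in RORasg/sg hearts. WT 4 lay just below RORasg/sg 2 before scaling, so the groups overlapped. The scaled difference was -0.47 (SE 0.291, interval -1.10 to 0.17, limma adjusted p = 0.415), and 0.10 and -0.91 within slides.

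A_52_P532910 gave nearly 1 value in all WT hearts, 105439, 105602, 109669, 103814 and 107099, and 105643, 59207, 18668 and 16461 in RORasg/sg hearts. The 1.06-fold range in WT was smaller than the 1.57-fold range of those arrays' 75th percentile. No spot was saturated. The scaled difference of this probe was -0.94 (SE 0.385, limma adjusted p = 0.377).

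A_52_P44949, which carries the same accession, gave 2262, 1588, 2048 and 589 in WT 1 to 4, against 4195, 157, 31.6 and 24.8 in the RORasg/sg hearts, with WT 5 left out for an outlier flag. RORasg/sg 1 was the highest heart and RORasg/sg 4 a 169-fold lower one. This probe had the largest difference of the 13 member probes, -2.66 (SE 1.16, interval -5.22 to -0.11, limma adjusted p = 0.387, n = 4 and n = 4). Its log2 ratio to A_51_P325173 was -5.90, -6.33, -6.28 and -6.78 in WT hearts and -5.15, -8.76, -10.36 and -10.04 in RORasg/sg hearts. Probes of this gene thus differed unequally in the 3 dimmer RORasg/sg hearts. The fourth probe, A_51_P378371, was not well above background on any array and was not tested. It and A_51_P325173 are each annotated to a transcript of their own, apart from the one shared by A_52_P44949 and A_52_P532910. Which exons the probes read is not given in the files. The genes between Tpm1 and Rora, namely Tln2 (0.23), C2cd4b (-0.92), C2cd4a (0.04) and Vps13c (-0.37), did not pass the threshold either (limma adjusted p from 0.411 to 0.962).

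**Figure D3:**
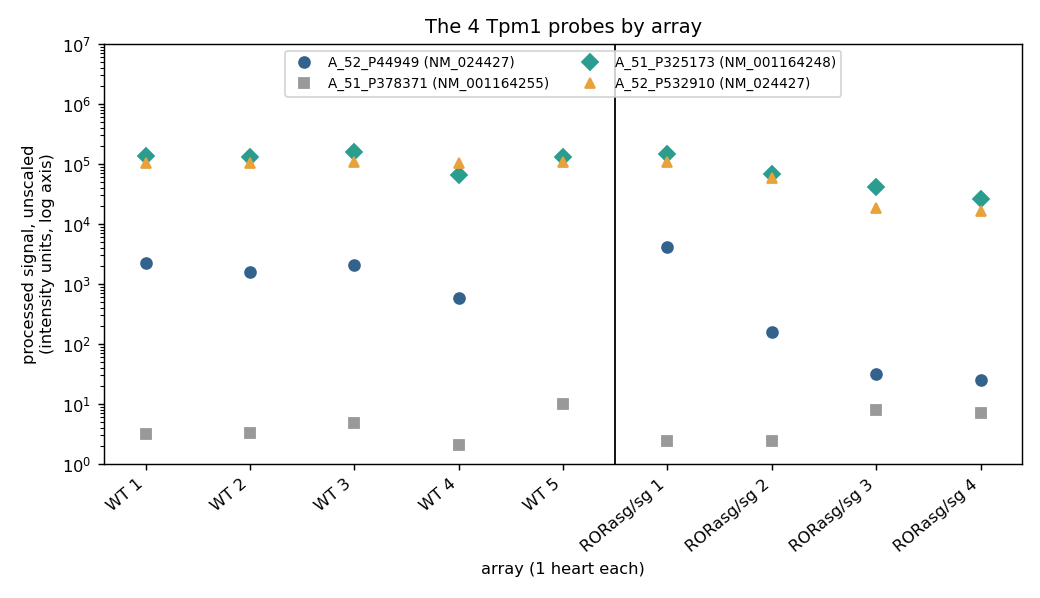
Points give the unscaled processed signal (log axis) of the 4 Tpm1 probes in each heart. The 2 brightest probes stay at or above 16461 in every heart, A_52_P44949 lies between 24.8 and 4195, and A_51_P378371 stays at or below 9.96.

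Actc1, the main actin of the adult heart, gave 126230, 122979, 114274, 78110 and 120260 in WT hearts and 167005, 36545, 14659 and 8800 in RORasg/sg hearts. RORasg/sg 1 was the brightest of all 9 and the other 3 were below every WT heart. After scaling the WT hearts lay within 7.49 to 7.78, with the smallest SD of the members (7.58 ± 0.121, n = 5), and the RORasg/sg hearts read 7.75, 6.97, 5.23 and 5.06 (6.25 ± 1.32, SD, n = 4). WT 4, dim as an array, was within 0.09 of the WT mean. The difference was -1.32 (SE 0.485, interval -2.38 to -0.26, limma adjusted p = 0.347), or 2.50-fold lower, and -0.19 and -2.35 within slides 1 and 2.

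Acta1, the skeletal actin of the fetal and overloaded heart, gave 1562, 2924, 4493, 1972 and 3090 in WT hearts and 2616, 358, 108 and 73.0 in RORasg/sg hearts. RORasg/sg 2, 3 and 4 were below all WT hearts by a wide margin, and RORasg/sg 1 lay inside the WT range. The scaled values were 1.19, 2.19, 2.83, 2.18 and 2.50 against 1.76, 0.29, -1.86 and -1.86, so the groups overlapped through WT 1 and RORasg/sg 1 alone. The difference of -2.59 (SE 0.740, interval -4.21 to -0.97), or 6.03-fold lower, had the smallest p of the members (limma adjusted p = 0.315), where 2.29% of all probes had a lower difference. It was -0.66 within slide 1 and -4.36 within slide 2. The direction is opposite to that of Tnni1, the other member known from the fetal heart.

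**Figure D4:**
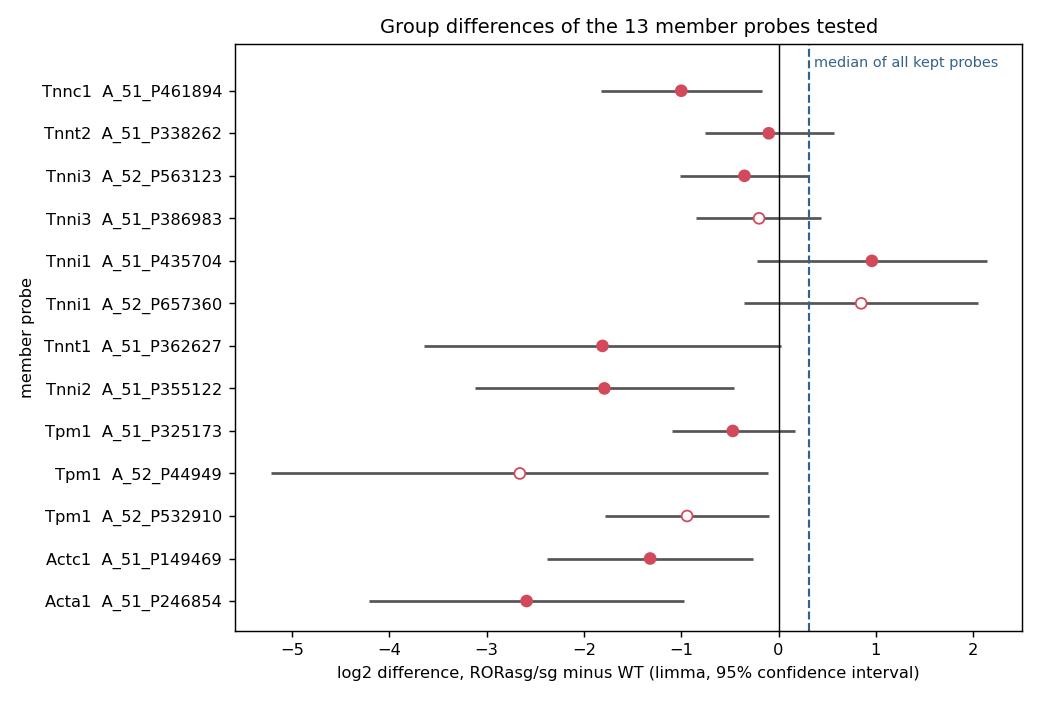
Points are the log2 differences (RORasg/sg minus WT) of the 13 member probes tested with 95% confidence intervals from limma, filled for the representing probe of each gene; the dashed line is the median of all kept probes, 0.31. The intervals of Tnnc1, Tnni2, Actc1, Acta1 and the Tpm1 probes A_52_P44949 and A_52_P532910 lie below 0, and none of the 13 passed the adjusted threshold.

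The calls depended on 1 heart, RORasg/sg 1. Without RORasg/sg 1, 6 of the 9 members passed in limma, Tnnc1 (-1.31), Tnnt1 (-2.78), Tnni2 (-2.47), Actc1 (-1.82) and Acta1 (-3.32) lower and Tnni1 (1.37) higher, with adjusted p from 0.00246 to 0.0448. That fit called 35.0% of all probes, 11.5% lower and 23.5% higher. All RORasg/sg arrays left in it were dimmer ones and all WT arrays but WT 4 were brighter, so brightness and group nearly coincide there. With array weights, which gave RORasg/sg 1 the smallest weight (0.108) and WT 4 the next (0.317), 8 members passed, 7 lower and Tnni1 higher, all but Tnnt2, and 47.7% of all probes did, 19.0% lower and 28.7% higher. In the 5 brighter arrays, where RORasg/sg 1 is the lone heart of its group and is assumed to vary like the WT hearts, 0 of 9 members passed and 5 had a higher mean, where 3.71% of all probes passed.

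The isoform balances compare both genes of a pair within an array, so a scaling factor of the array cancels. A correction that depends on intensity does not cancel. The 4 balances were tested with an exact two-sided permutation test over 126 splits, whose smallest possible p is 0.0159, with Benjamini-Hochberg adjustment over the 4. The ratio shows unequal change of the pair, not which gene moved, and levels of different probes are not comparable.

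The balance of skeletal over cardiac actin, Acta1 over Actc1, was -6.34, -5.39, -4.67, -5.31 and -5.28 in WT hearts and -6.00, -6.68, -7.09 and -6.91 in RORasg/sg hearts. Of the RORasg/sg hearts, 3 lay below every WT heart and RORasg/sg 1 lay just above WT 1. The difference was -1.27 (SE 0.359, exact permutation p = 0.0317, adjusted p = 0.127), with -0.47 and -2.01 within slides, so Acta1 read lower relative to Actc1 in RORasg/sg hearts without passing after adjustment.

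The balance of slow skeletal over cardiac troponin I, Tnni1 over Tnni3, was between -10.41 and -8.82 in WT hearts and -10.01, -9.62, -7.38 and -6.61 in RORasg/sg hearts. RORasg/sg 3 and 4 stood above every WT heart and RORasg/sg 1 and 2 stood among them. The difference was 1.31 (SE 0.873, exact permutation p = 0.206, adjusted p = 0.206), and 1.05 to 1.31 over the 4 pairings of the 2 probes of each gene. Within slides it was -0.14 and 2.42.

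The balance of fast skeletal over cardiac troponin I, Tnni2 over Tnni3, was -4.49, -5.48, -5.42, -5.46 and -5.43 in WT hearts and -5.05, -8.41, -7.11 and -6.22 in RORasg/sg hearts. Its difference was -1.44 (SE 0.736, exact permutation p = 0.0794, adjusted p = 0.159), with -1.74 and -1.22 within slides. The balance of slow skeletal over cardiac troponin T, Tnnt1 over Tnnt2, was -5.21, -5.56, -5.18, -6.55 and -5.48 against -4.09, -7.62, -8.98 and -8.55. Its difference was -1.71 (SE 1.14, exact permutation p = 0.159, adjusted p = 0.206), with -0.47 and -2.90 within slides. In this pair RORasg/sg 1 was the highest heart and the other RORasg/sg hearts the lowest. Without RORasg/sg 1 the balances of Acta1 (-1.49), Tnni2 (-1.99) and Tnnt1 (-2.79) reached an adjusted p of 0.0476, and that of Tnni1 (1.85) did not, at 0.107 (exact permutation tests). Each of the former had an exact permutation p of 0.0357, the smallest possible with that heart left out, so their shared adjusted p does not rank them.

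**Figure D5:**
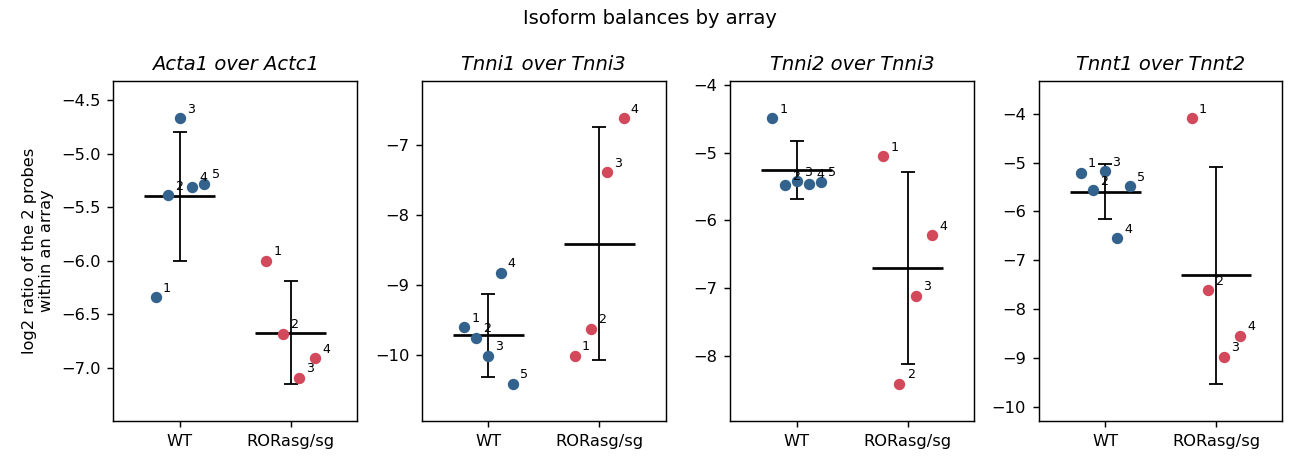
Each panel plots the log2 ratio of the representing probes of 2 genes within an array for the 5 WT and 4 RORasg/sg hearts, with replicate numbers, the group mean (bar) and SD (whiskers); each panel has its own vertical range. For Acta1 over Actc1, 3 RORasg/sg hearts lie below all WT hearts, and for Tnni1 over Tnni3, RORasg/sg 3 and 4 lie above them.

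Other genes of the thin filament and of actin assembly were taken from a list of 19, all measured. Of these, 8 had a higher and 11 a lower mean in RORasg/sg hearts, 0 passed in limma, and 2 were lower and 2 higher at an unadjusted p under 0.05. The median was -0.23 against 0.31 for all probes. Lmod2, a leiomodin that lengthens cardiac thin filaments, differed by -1.92 (SE 0.659), and Capza2, an actin-capping subunit, by -3.37 (SE 1.24), with a signal well above background in 3 RORasg/sg hearts of 4. Xirp1, an actin-binding protein of intercalated discs, differed by 1.27 (SE 0.489), and Tpm4, a cytoskeletal tropomyosin, by 1.54 (SE 0.667). The skeletal partners Tnnt3 and Tnnc2 differed by 0.62 (SE 0.605) and -0.23 (SE 0.612). The adjusted p of these 6 genes lay between 0.334 and 0.823 in limma.

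The 4 actins outside the sarcomere also had lower means, with a median of -0.95, 0 of 4 passing in limma and 0 of 4 at an unadjusted p under 0.05. Acta2, smooth muscle actin, differed by -1.28 (SE 0.590), Actg2, also a smooth muscle actin, by -1.47 (SE 0.951), and the cytoplasmic actins Actg1 by -0.63 (SE 0.602) and Actb by -0.48 (SE 0.570). Actb read 4.34 to 4.90 in WT hearts and 5.68, 5.24, 2.93 and 2.95 in RORasg/sg hearts. In RORasg/sg hearts 1 to 4 these actins deviated from the WT mean by a median of 1.13, -0.15, -2.40 and -1.77, so RORasg/sg 3 and 4 read low for smooth muscle and cytoplasmic actins as well as for Actc1 and Acta1.

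Of 10 regulators of sarcomeric gene transcription, 4 had a higher and 6 a lower mean, with a median of -0.34 and 0 passing in limma. Srf, whose protein binds the CArG boxes shown above, read 4.50, 4.77, 4.80, 4.95 and 5.07 in WT hearts and 4.48, 3.83, 3.28 and 2.09 in RORasg/sg hearts. Every RORasg/sg heart was below every WT heart, the first by 0.02, as for 1.83% of all probes. The difference was -1.40 (SE 0.446, limma adjusted p = 0.322). Mef2d, a MEF2 factor, differed by -1.21 (SE 0.496), and the SRF cofactors Mrtfa by 1.81 (SE 0.716) and Mrtfb by 1.40 (SE 0.522), with adjusted p from 0.353 to 0.377. Myocd, the SRF cofactor of heart and smooth muscle, differed the other way, by -2.52 (SE 1.21, limma adjusted p = 0.392). It read 2.51, 2.51, 2.37, -1.20 and 2.20 in the WT hearts and 2.56, 0.22, -2.22 and -3.92 in the RORasg/sg hearts, so WT 4 was low as well. The 3 cofactors thus had no common direction.

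The median of the cardiomyocyte markers was low in RORasg/sg 3 and 4, as that of the members was. It was not low in RORasg/sg 2, where the members' median was -0.61. All 12 markers were measured, 9 with a lower and 3 with a higher mean, 4 lower at an unadjusted p under 0.05 and 0 passing in limma, with a median of -0.79. The lowest p values belonged to Tcap (-1.06, SE 0.316, with no value in RORasg/sg 1 and 2), Pln (-1.46, SE 0.472), Myl2 (-1.29, SE 0.442) and Myh6 (-2.74, SE 1.09). They deviated from the WT mean by a median of -0.09, 0.06, -1.15 and -1.17 in RORasg/sg 1 to 4, and the summed scaled level was 979 to 1260 in WT and 841 to 1300 in RORasg/sg hearts. Mb (0.10), Mybpc3 (0.13) and Atp2a2 (0.61) did not have lower means. Atp2a2 read 7.56 and 7.51 in RORasg/sg 3 and 4, above every WT heart. In RORasg/sg 2, Myh6 and Pln read below every WT heart, and Atp2a2, Mb and Mybpc3 above every WT heart. Single markers thus had no common direction in these hearts. The sums of RORasg/sg 1 and 2 lack Tcap. All 12 markers were well above background in every heart in which they had a value, so the defining genes of the labelled tissue were present.

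Markers of other cell types gave 0 calls in limma in each of their lists. The 5 atrial genes had a median of 0.92 and a summed level of 7.31 to 23.6 in WT and 5.02 to 10 in RORasg/sg hearts, with Myl7 (1.6, SE 0.490) and Myl4 (0.92, SE 0.655), the atrial myosin light chains, higher in mean and Nppa (-1.20, SE 0.432) lower. The 5 smooth muscle genes had a median of -0.09 and summed levels of 40.8 to 99.5 and 44.0 to 102, and the 5 fibroblast genes a median of 0.42 and 49.5 to 85.7 against 63.2 to 141. The 4 endothelial genes had a median of -1.39, with sums of 13.3 to 30.3 and 13.9 to 49.6. They deviated by a median of 0.29, -1.19, -2.50 and -1.90 in RORasg/sg 1 to 4. This median was again low in hearts 3 and 4 and lower still than that of the cardiomyocyte markers. The 4 genes had no common direction, with Tek (-2.67), Pecam1 (-1.5) and Kdr (-1.28) lower in mean and Cdh5 (0.59) higher. Cdh5 read 5.55, 4.82 and 3.67 in RORasg/sg 2, 3 and 4 against a WT mean of 3.88. The macrophage (6.07 to 13.3 against 7.16 to 16.6) and adipocyte sums (0.296 to 1.13 against 0.306 to 1.23) overlapped between the groups, as did those of every list. The part of cell content in the member differences was not tested.

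The genes whose profile over the 9 hearts was most like that of each member were found among 15235 named genes measured on all arrays, by Pearson's r. The hearts share array brightness and group, so these likenesses are a description. For Actc1 they were Rpl19 (r = 0.998), Nek7 (0.996) and Tcea3 (0.993), and for Acta1 Eef1b2 (0.989), Arpp19 (0.983) and Spg7 (0.981). Rpl19 encodes a ribosomal protein and Eef1b2 a translation elongation factor subunit. For Tnnc1 they were Kcna6 (0.989), Pfdn1 (0.988) and Car14 (0.988), for Tnnt2 Mmp24 (0.971), Bpnt1 (0.955) and Higd2a (0.950), and for Tnni3 Rapgef3 (0.987) and Ccdc124 (0.984). For Tpm1 they were Cd300lg (0.980), Poldip2 (0.978) and Npr3 (0.973), for Tnnt1 Rnaset2b (0.991), Ak1 (0.990) and Gpr182 (0.987), and for Tnni2 Taf7 (0.987), Parp2 (0.986) and Angptl1 (0.985). For Tnni1 they were Tex15 (0.996), Tekt4 (0.993) and Frs3 (0.992). No member was among the nearest 3 of another, and Actc1 and Acta1 correlated at 0.95, Actc1 and Tnnt1 at 0.96, and Actc1 and Tnni1 at -0.92 over the same hearts.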

How the data were processed

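Total RNA from 9 hearts was measured on 1-colour Agilent arrays (design 014868), with 70 ng of RNA amplified and 5 ug of cDNA labelled with Cy3, per the labels' protocols. The deposited values are scanner intensities, background-subtracted by Feature Extraction 12.0.0.7 (build mm9), per the file headers, and the deposited value table held the same signal. Its intensities were converted to log2 here and each array's 75th percentile over 43379 non-control spots was subtracted. 758 outlier spots were left out, and no spot was saturated. Of 41174 probes, 36402 that at least 4 of the 9 arrays showed well above background were tested with limma 3.58.1 in R 4.3.3 (eBayes with trend, Benjamini-Hochberg threshold 0.05 over all probes), without covariates. The scripts were tested on simulated data. For limma these had the WT spread in both groups, so the wider spread of the RORasg/sg hearts was not covered. Gene names came from matching accessions to a RefSeq table (GRCm38.p6), which named 28223 probes. The number of arrays limits the precision. Each limma p-value sets a group difference against a spread between hearts that is pooled over both groups and adjusted with all probes. The RORasg/sg hearts spread more than the WT hearts, so an equal spread is an assumption of that fit. The permutation p-values set a balance difference against the other splits of these hearts. Plots used matplotlib 3.10.9 under Python 3.11.15.

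The members and lists were chosen with earlier results of these data known. All members were named, with up to 4 genes of each list by p value, every actin, and the 3 genes nearest each member by Pearson's r, of which 1 is not reported here. Further list genes (Tnnt3, Tnnc2, Mb, Mybpc3, Atp2a2 and Actn3) were named after their values were seen. The 27 alternatives covered scaling, background correction, filters, array weights, slide, brightness, the replicate number and each array left out.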

Additional observations from a re-analysis of the deposited data

Results flagged for a closer look

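Of 34 groups of 4 or 5 values tested (13 member probes and 4 balances, in each group of hearts), 4 held a value far from the rest, all among the WT hearts, where chance gives about 1 in 20. In Tnnc1, WT 4 read 6.64 while the other WT hearts read 5.63 to 5.76. In Tnni2, WT 1 read 2.22 against 1.49 to 1.70. In the balance of Tnni2 over Tnni3, WT 1 stood at -4.49 against -5.48 to -5.42, and in that of Tnnt1 over Tnnt2, WT 4 stood at -6.55 against -5.56 to -5.18. Both WT 1 flags share the same Tnni2 value. No such value was flagged among the RORasg/sg hearts, where a value among 4 must stand further off than among 5 to be flagged. The absence of flags there is thus no sign that these hearts were alike. For Tnni2, RORasg/sg 1 read 1.97 against -1.06 to -0.34 in the other RORasg/sg hearts and was not flagged. WT 4 was the dimmest WT array. No cause was tested.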

How the results depend on the processing

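The count of probes passing in limma (1) became 4 without scaling, 17381 with array weights and 1351 in the 5 brighter arrays, and leaving out each array in turn gave 0 to 12749. It became 0 with normexp, with the all-array filter, with the mean of a gene's probes and with slide as a block. Within either slide, in the 4 dimmer arrays and with brightness as a covariate it was 0 as well. In that order the unadjusted counts were 5307, 3769, 3413, 3483, 468, 7079, 2605 and 1690, against 4650. The all-array filter tested 28044 probes and the mean of a gene's probes left 27773 to test, against 36402, so their counts stand on a smaller base. With the replicate block the count passing was 0 (3904 unadjusted) and Acta1 read -2.51 (limma adjusted p = 0.259). No member's call changed. With each group's mean subtracted per probe, same-numbered hearts correlated at 0.07, -0.01, -0.34 and 0.40. On these values RORasg/sg 4 was most like WT 4, and the other RORasg/sg hearts were most like a WT heart of another number. So few hearts cannot settle whether the numbers mark pairs. Directions turned for Tnnt2 within slide 1 (0.42), without WT 4 (0.05), without RORasg/sg 1 (0.0012) and without RORasg/sg 3 (0.02), for Tnni3 (0.34) and Tpm1 (0.10) within slide 1, and in the brighter arrays for Tnni3 (0.05), Tnni1 (-0.02), Tnnc1 (0.12), Tnnt1 (1.02), Tnni2 (0.21) and Actc1 (0.16). Acta1 kept its direction under all 27. The balance of Tnni1 over Tnni3 turned within slide 1 (-0.14) and in the brighter arrays (-0.07), as did, in the latter, Tnni2 over Tnni3 (0.16) and Tnnt1 over Tnnt2 (1.27). Under quantile normalization the balances read -1.0 (Acta1), 1.70 (Tnni1), -1.05 (Tnni2) and -1.38 (Tnnt1). Under normexp they read -0.84, 1.17, -1.17 and -0.98 in the same order. With single arrays left out the balances ranged from -1.50 to -1.09 (Acta1), 0.72 to 1.85 (Tnni1), -1.99 to -0.87 (Tnni2) and -2.79 to -1.16 (Tnnt1). Single genes ranged from -0.34 to 0.05 (Tnnt2), -0.59 to -0.10 (Tnni3), 0.61 to 1.37 (Tnni1), -2.78 to -1.14 (Tnnt1) and -0.69 to -0.27 (Tpm1); the values nearest 0 came without RORasg/sg 4 for Tnni3, Tnni1 and Tpm1 and without RORasg/sg 3 for Tnnt1. Tpm1 read -1.79 as the mean of its kept probes. The cause was not tested. Levels near background, as for A_51_P378371, set no order.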
